A study of Mus musculus with 6 samples.

Results

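The BCL2 family decides whether a cell keeps or opens its outer mitochondrial membrane, the step that commits most vertebrate cells to apoptosis. The effectors BAX and BAK1 open the membrane and let cytochrome c escape, the anti-apoptotic proteins BCL2, BCL2L1 (BCL-XL), BCL2L2 (BCL-W) and MCL1 hold the effectors back, and the BH3-only proteins BID, BAD, BBC3 (PUMA) and BCL2L11 (BIM) sense damage and tip the balance towards death. In the retina this family is known for removing surplus neurons during development and for the death of ganglion cells after injury to their axons. The genes were taken by their symbols and comprise 2 effectors, 4 BH3-only genes and 4 anti-apoptotic genes. Of these 10, 9 were named alone by at least 1 probe set, with 32 probe sets between them, out of 18193 genes and 45037 probe sets in the table. Bax had no such probe set in the annotation used here and was not analysed, so Bak1 stands alone for the effectors.

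Retinal RNA was taken from 3 adult wild type (WT) mice and 3 adult Trim9 KO littermates and hybridized to 6 arrays, 1 for each sample. Trim9 encodes a ubiquitin ligase of neurons, and the KO allele lacks its first exon after recombination by a Cre driven from the CMV promoter, so the gene is deleted in the whole animal and not in a chosen retinal cell type. Strain, sex and exact age are not given in the labels, nothing links particular littermates, and a labelled note on treatment that speaks of embryos goes against the adult tissue named elsewhere. 

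The arrays differed in ways that partly cut across genotype. The brightest Trim9 probe set read 4226, 1767 and 1667 (linear intensity) in WT replicates 1, 2 and 3 and 1498, 497 and 367 in the KO replicates, with every KO array below every WT array. Of its other 3 probe sets 1 was separated in the same way (log2 fold change -2.48). It read 2583, 1526 and 2472 in WT and 35.9, 1414 and 759 in KO, in replicate order. The others (-0.77 and -0.58) overlapped, the latter with 1959 on KO replicate 1 against 697, 1075 and 2069 in WT. Their suffixes, _s_at and _x_at, mark probes that other transcripts may share, so these overlapping probe sets may not read Trim9 alone. The part of shared probes in the overlap was not tested. Trim9 KO replicate 1 correlated with the other arrays at Pearson's r of 0.47 to 0.52 across probe sets, against 0.66 to 0.89 among the others. The ratio of the 3' to the 5' control signal of Actb, which grows as RNA is degraded or amplified short, was 20.2, 9.87 and 3.43 in WT and 2.83, 94.5 and 90.5 in Trim9 KO retinas, in replicate order. The same ratio for Gapdh was 310, 82 and 0.905 in WT and 134, 153 and 163 in KO. Both ratios were highest on WT replicate 1 and KO replicates 2 and 3. By Gapdh, however, KO replicate 1 (134) lay close to KO replicates 2 and 3, while by Actb it was the lowest array. The median intensity of an array lay between 218 and 807, in an order that cut across genotype. Retinal markers were present, with 14 of 17 measured and 0 listed at 0. Their summed intensity was 599847 to 1121441 in WT and 435691 to 596766 in Trim9 KO retinas, and 12 of the 14 had a lower mean in KO. That sum rests on a few very bright probe sets. Gene by gene, 0 of the 14 were separated with KO low, against 2.89% of all genes. With KO high 2 were separated, Tfap2a (log2 fold change 0.27) and Pou4f1 (1.73), against 5.35% of all genes. Markers of pigment epithelium, a layer that can cling to a dissected retina, summed to 74658 to 475313 in WT and 341661 to 1365710 in KO, with 5 of 6 higher in KO. Most of this sum was Ttr alone, at 67384 to 468976 in WT and 313314 to 1353350 in KO. Of the 6 genes 0 were separated in either direction, beside those same shares of all genes. Mitf was the 1 with a lower mean in KO (log2 fold change -1.77). Other marker lists were higher in KO for 5 of 6 lens, 2 of 2 blood, 3 of 6 microglia and macrophage and 3 of 4 vessel genes, beside 55.2% of all genes. The part of these differences in the values that follow was not tested, and in whole tissue fewer cells of a type and less RNA per cell cannot be told apart.

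No BCL2 family gene passed the comparison of genotypes. With each intensity taken as log2(intensity + 16), limma gave an adjusted p of 0.999 for every one of the 32 probe sets, and 0 of 9 members passed 0.05, where the share over all probe sets was 0%. At an unadjusted p under 0.05 there were 0 of 9 members by their brightest probe set and 1 of 32 probe sets, against 2.88% of all probe sets. Of the 9 members, 4 had a higher mean in Trim9 KO retinas and 5 a lower one, a share of 44.4% higher against 55.2% of all genes. Their median log2 fold change, KO over WT, was -0.11, and that of all genes was 0.14. The standard errors of the members lay between 0.94 and 1.16 on the log2 scale, and the unadjusted 95% intervals reached 2.06 to 2.54 to either side of each estimate. With 3 arrays in a group, differences of that size could go undetected, and so could larger ones. A dim Bcl2l11 probe set with a log2 fold change of 3.01 also had an adjusted limma p of 0.999.

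**Figure D1:**
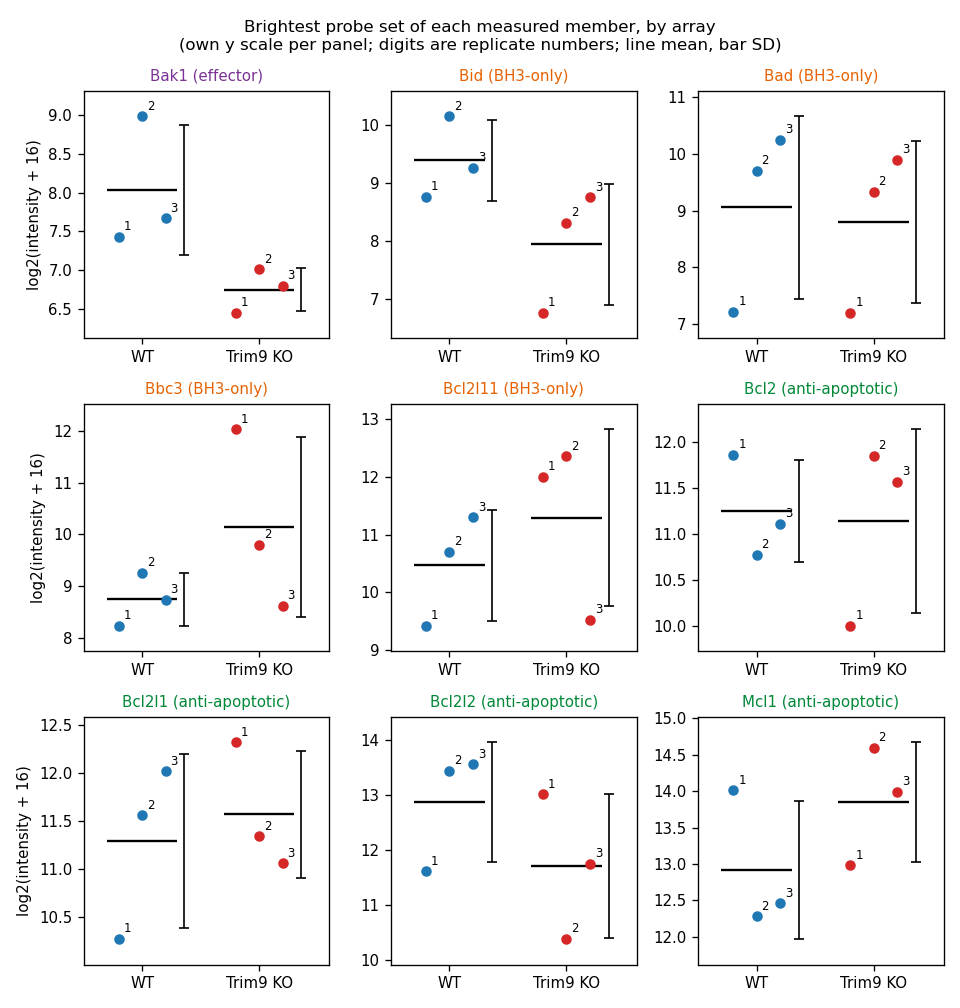
Signal of the brightest probe set of each measured member, plotted vertically as log2(intensity + 16), for 3 arrays of WT retina (blue) and 3 of Trim9 KO retina (red); points are arrays with their replicate number, lines are means and bars are SD. Bak1 and Bid are the panels in which no KO array reaches the lowest WT array.

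Bak1, the measured effector, had dim signal, with both of its probe sets below the median brightness of all probe sets. Its brightest probe set, 1418991_at, read 156, 491 and 187 in WT and 71.6, 113 and 95.8 in Trim9 KO retinas, in replicate order. Every KO array lay below every WT array, at a log2 mean ± SD of 6.75 ± 0.28 in KO and 8.03 ± 0.84 in WT (n = 3 each). The log2 fold change was -1.27 (standard error 0.94), with p = 0.1 in a two-sided exact permutation test, below which a design of 3 against 3 cannot go. Without WT replicate 2 it was -0.79. Its other probe set, 1425716_s_at, read 6.38, 1233 and 14.8 on the WT arrays and 824, 90.7 and 167 on the KO arrays, so its groups overlapped and its log2 fold change was 1.42 (standard error 1.52). Since the suffix _s_at marks probes that several transcripts share, this probe set may not read Bak1 alone.

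Among the BH3-only genes, Bid, which carries the signal of death receptors to mitochondria, gave the lowest value of the family. Its probe set 1417045_at read 421, 1124 and 599 in WT and 93.3, 304 and 418 in Trim9 KO retinas, in replicate order. The highest KO array (418) stopped just under the lowest WT array (421), and the log2 fold change was -1.45 (standard error 0.99, two-sided exact permutation p = 0.1). It was -0.86 when KO replicate 1 was left out. Both other Bid probe sets had a higher mean in KO, one by 1.05 (standard error 0.99) and the next by 1.32 (standard error 1.35) on the log2 scale, and in both the groups overlapped. Bak1 and Bid were thus 2 of 9 members with every KO array below every WT array, against 2.89% of genes, and 0 of 9 had every KO array above, against 5.35% of genes. Neither separation held when all probe sets of a gene were averaged, where the log2 fold changes were 0.07 for Bak1 and 0.31 for Bid. With that averaging 0 of 9 members were free of overlap, against 7.58% of genes.

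Bbc3, a target of the p53 pathway, had the highest log2 fold change of the 9 members, and it is read here by 1 probe set. Signals were 285, 599 and 407 in WT and 4171, 873 and 376 in Trim9 KO retinas, in replicate order. Replicate 1 stood far above the other KO arrays, while replicate 3 lay within the WT range. The log2 fold change was 1.41 (standard error 1.08, two-sided exact permutation p = 0.3), and it was 0.46 without KO replicate 1 and 2.17 without KO replicate 3.

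Bcl2l11 encodes BIM, whose transcript is spliced into several forms, and 5 probe sets read it. The brightest, 1456005_a_at, was at 667, 1653 and 2511 in WT and 4070, 5197 and 724 in Trim9 KO retinas. KO replicates 1 and 2 were above all WT arrays and KO replicate 3 was near the lowest of them, for a log2 fold change of 0.82 (standard error 1.09). With 1 array left out it ranged from 0.29, without WT replicate 1 or KO replicate 2, to 1.70 without KO replicate 3. The next, 1435448_at, read 4927, 1511 and 1813 in WT and 52.6, 4405 and 4253 in KO, with KO replicate 1 alone below the WT arrays and a log2 fold change of -1.14 (standard error 1.52). A dim probe set, 1426334_a_at, was the 1 of the 32 with an unadjusted limma p under 0.05, at p = 0.0408, with p = 0.3 in the two-sided exact permutation test and an adjusted limma p of 0.999. It read 5.67, 21.4 and 19.2 in WT and 1469, 284 and 17.8 in KO, so that its log2 fold change of 3.01 (standard error 1.30) rested on KO replicates 1 and 2 while replicate 3 lay among the WT values. The 2 remaining probe sets had log2 fold changes of 0.06 and -0.23.

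Bad, which growth factor signalling keeps inactive by phosphorylation, was lowest on the first replicate of each genotype. Its brightest probe set, 1416582_a_at, read 133, 817 and 1198 in WT and 131, 632 and 939 in Trim9 KO retinas. Those were the lowest values by far, and the second probe set had its lowest values on the same 2 arrays (216 and 171, against 298 to 1364 on the rest). The brightest had a log2 fold change of -0.24 (standard error 1.16) and the other one of -0.81 (standard error 1.04). The former turned to 0.56 when KO replicate 1 was left out.

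The anti-apoptotic genes were read by 19 probe sets, of which 12 had a higher and 7 a lower mean in Trim9 KO retinas. Mcl1, a short-lived protein whose loss starts apoptosis quickly, lay above the median brightness of all probe sets on all 6 of its own. The brightest, 1456381_x_at, read 16448, 4961 and 5629 in WT and 8038, 24789 and 16253 in KO retinas, for a log2 fold change of 0.94 (standard error 0.99) with overlap between genotypes. It was 0.57 without KO replicate 2, 1.48 without WT replicate 1 and 0.25 with its 6 probe sets averaged. The suffix _x_at marks probes that may also match other transcripts, so 1456381_x_at may not read Mcl1 alone. Its 3 highest values came from WT replicate 1 and KO replicates 2 and 3.

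Bcl2l2, a survival factor of postmitotic neurons among other cells, had the opposite order. Its probe set 1423572_at read 3105, 11006 and 11958 in WT and 8207, 1314 and 3430 in Trim9 KO retinas, so WT replicate 1 and KO replicates 2 and 3 were the 3 lowest arrays. Its log2 fold change was -1.15 (standard error 1.06), and it ranged from -0.48 without KO replicate 2 to -1.80 without KO replicate 1. With array weights it was -2.08, with an unadjusted p under 0.05 and an adjusted limma p of 0.619, and with its 4 probe sets averaged -0.26. A second probe set designed from the same source sequence, 1451029_at, read 1081, 194 and 591 in WT and 240, 1814 and 1408 in KO, and put the same 3 arrays highest. Its log2 fold change was 0.75 (standard error 1.11).

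Bcl2, the founding member of the family, and Bcl2l1, whose long product protects neurons, lay closest to 0 among the 4 anti-apoptotic genes. For Bcl2, 1457687_at read 3700, 1727 and 2193 in WT and 1006, 3673 and 3031 in Trim9 KO retinas, a log2 fold change of -0.11 (standard error 0.97) with a 95% interval from -2.24 to 2.03. For Bcl2l1, 1420888_at read 1222, 3008 and 4144 in WT and 5093, 2571 and 2124 in KO, a log2 fold change of 0.29 (standard error 0.97) with an interval from -1.84 to 2.41. In both genes the WT and KO arrays interleaved, and the intervals still hold sizeable changes in either direction. The sign of both changed with the arrays used, to 0.47 for Bcl2 and -0.09 for Bcl2l1 when KO replicate 1 was left out, and Bcl2l1 was also at -0.03 with array medians made equal.

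**Figure D2:**
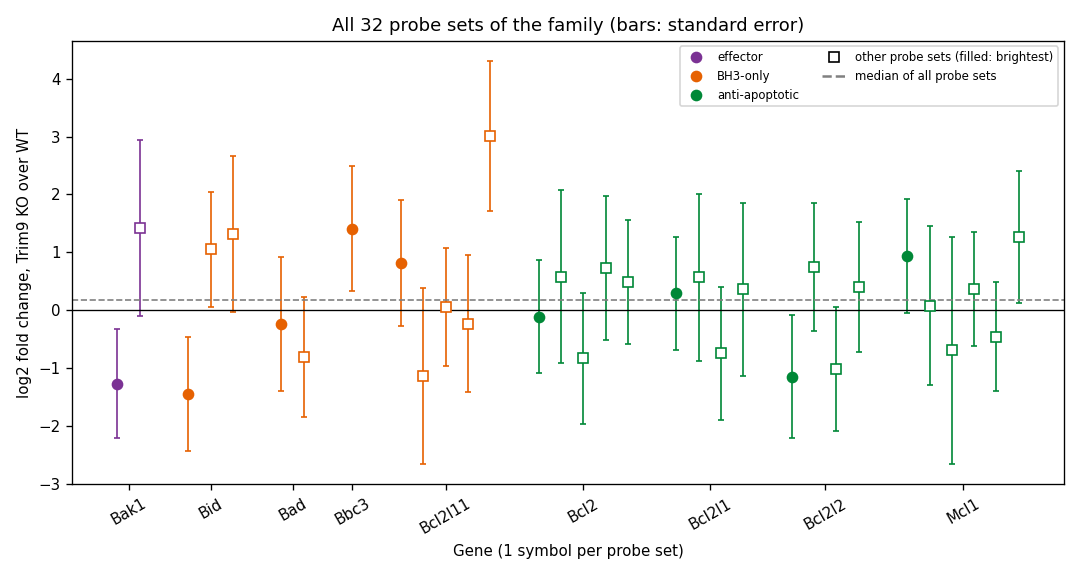
Change between genotypes as log2 of KO over WT (vertical axis) for the 32 probe sets, grouped by gene along the horizontal axis; filled circles are the brightest probe set of a gene, open squares its others, bars are standard errors, colours are roles and the dashed line marks 0.18, the median over the whole table. Probe sets of 1 gene lie on both sides of 0 for 7 of the 8 genes that have several.

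Probe sets of the same gene often pointed in different directions. Of the 8 members with several probe sets, 7 had log2 fold changes of both signs, and Bad was the exception. Over the 32 probe sets, 19 had a higher mean in KO (59.4%, against 56.4% of all probe sets) and 13 a lower one. Of the 32, 18 were brighter than the median of all probe sets, among them 8 of the 9 used as the main reading. The direction given for those 7 genes is thus that of their brightest probe set.

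The balance between pro-apoptotic and anti-apoptotic genes was compared next, since the proteins of these groups act against each other. What was compared is transcript signal, and protein was not measured on the arrays. For each array the mean log2 signal of the 5 measured pro-apoptotic members was set against that of the 4 anti-apoptotic members; only its change between arrays can be read, because signals of different probe sets have no common scale. The pro-apoptotic mean was 8.21, 9.76 and 9.44 in WT and 8.89, 9.36 and 8.72 in Trim9 KO retinas, a difference of -0.15 with overlapping groups. The anti-apoptotic mean was 11.94, 12.01 and 12.29 in WT and 12.07, 12.04 and 12.09 in KO, a difference of -0.01. Pro minus anti was -2.94 ± 0.74 in WT and -3.08 ± 0.36 in KO (SD, n = 3 each), and the difference of -0.14 was smaller than either SD. The WT arrays held both the highest and the lowest value, and the sign turned to 0.21 without WT replicate 2 and to 0.01 without KO replicate 3.

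**Figure D3:**
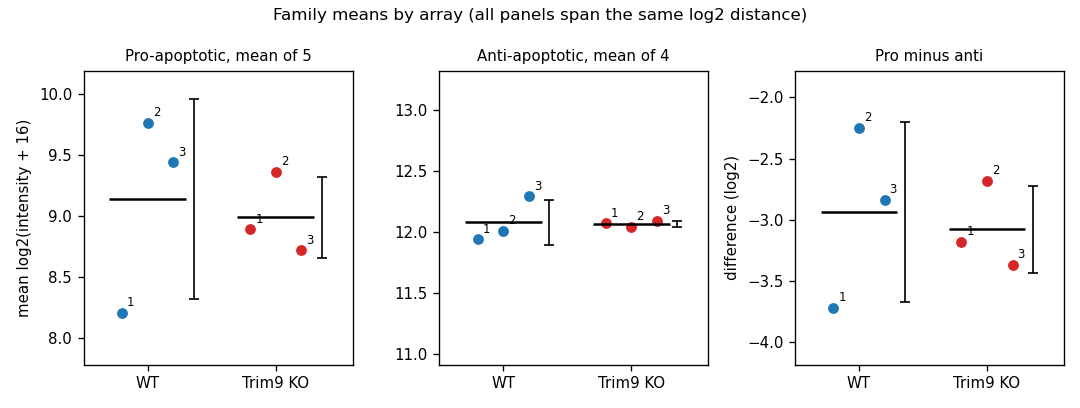
Mean log2(intensity + 16) of the 5 pro-apoptotic members, of the 4 anti-apoptotic members and the difference between them (vertical axes, each spanning the same log2 distance), with WT arrays in blue and KO arrays in red; lines are means and bars SD. The pro-apoptotic mean spreads from 8.21 to 9.76, the anti-apoptotic mean from 11.94 to 12.29.

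By their brightest probe sets, the 4 genes behind the anti-apoptotic mean differed in opposite directions along the Actb 3' to 5' ratio of the arrays. That ratio was examined after the data were seen. Where that ratio was 20.2 or more, on KO replicates 2 and 3 and WT replicate 1, Mcl1 and Bcl2 lay above, and Bcl2l1 and Bcl2l2 below, their values on all 3 arrays with a ratio of 9.87 or less. The mean log2 difference between the high-ratio and the low-ratio arrays was 1.63 for Mcl1, 1.14 for Bcl2, -1.08 for Bcl2l1 and -2.08 for Bcl2l2. Other probe sets of these genes did not all follow. Those of Bcl2 overlapped between the classes, at -1.54, 0.22, -0.57 and -0.92. For Bcl2l1, 1420887_a_at was also all below (-2.19), and the rest overlapped. For Bcl2l2, 1451029_at went the opposite way, all above (2.15), and the rest overlapped. So 2 of 9 members had the high-ratio arrays all above, against 11.9% of genes, and 2 of 9 all below, against 10.3% of genes. Of the 5 pro-apoptotic members, 0 were separated in this way by their brightest probe set. Another probe set of Bcl2l11, 1435448_at, did have the high-ratio arrays all above (mean log2 difference 2.98). Over the probe sets, 7 of 32 (21.9%) had the high-ratio arrays all above, against 7.81% of all probe sets, and 3 of 32 (9.38%) all below, against 11.4%. The 7 came from 4 genes, and 4 of them read Mcl1, so they are not independent. Of these 4, 1456381_x_at, 1437527_x_at and 1456243_x_at carry the suffix _x_at and may not read Mcl1 alone. Without that suffix, the Mcl1 probe set 1448503_at also had the high-ratio arrays all above, whereas 1416880_at and 1416881_at did not. The part of shared probes in this pattern was not tested. The widest gap was that of the Mcl1 probe set 1456243_x_at, at 22614, 32182 and 19849 on the high-ratio arrays and 1659, 6329 and 72.8 on the low-ratio arrays, a mean log2 difference of 4.63.

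**Figure D4:**
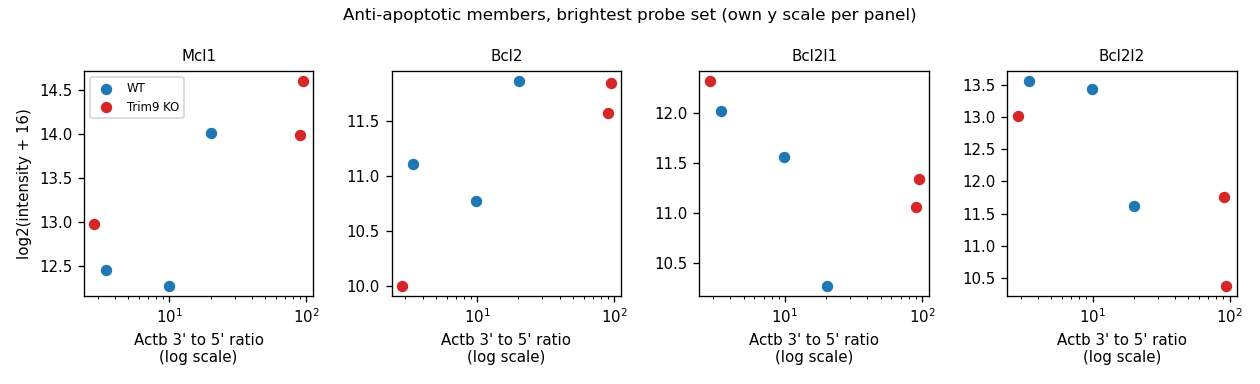
Log2(intensity + 16) of the brightest probe set of the 4 anti-apoptotic members (y axis, own scale per panel) against the Actb 3' to 5' signal ratio of the array (x axis, log scale), with 1 point per array, blue for WT and red for KO. The 3 arrays with a ratio of 20.2 to 94.5 lie above the rest for Mcl1 and Bcl2 and below the rest for Bcl2l1 and Bcl2l2.

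Because each class of arrays held both genotypes, WT and KO could also be compared within it, with 1 WT and 2 KO arrays at high ratios and 2 WT and 1 KO arrays at low ratios. The KO-over-WT log2 difference had the same sign in both classes for 8 of 9 members, against 54.6% of genes. For Bak1 and Bid the sign could not differ between classes, since every KO array lay below every WT array. One genotype has a single array in each class, so these differences have no replicate error, and no test was made of them. It was 0.29 and 0.60 for Mcl1, -0.15 and -0.94 for Bcl2, 0.93 and 0.53 for Bcl2l1 and -0.54 and -0.48 for Bcl2l2, at high and at low ratios. For the pro-apoptotic members other than Bad it was -0.52 and -1.87 for Bak1, -0.23 and -2.94 for Bid, 0.97 and 3.04 for Bbc3 and 1.52 and 0.99 for Bcl2l11. Bad was the exception, at 2.40 and -2.78. In Bak1, Bid, Bbc3, Bad, Bcl2 and Mcl1 the larger difference came from the low-ratio class, whose single KO array is Trim9 KO replicate 1. With the class as a block in limma, a setting chosen after the data were seen, 0 of 9 members passed (lowest adjusted p = 0.615, for Bbc3). Pro minus anti was 0.70 higher in KO within the high-ratio arrays and lower within the low-ratio arrays (-0.64). The part of RNA quality in these values was not tested.

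**Figure D5:**
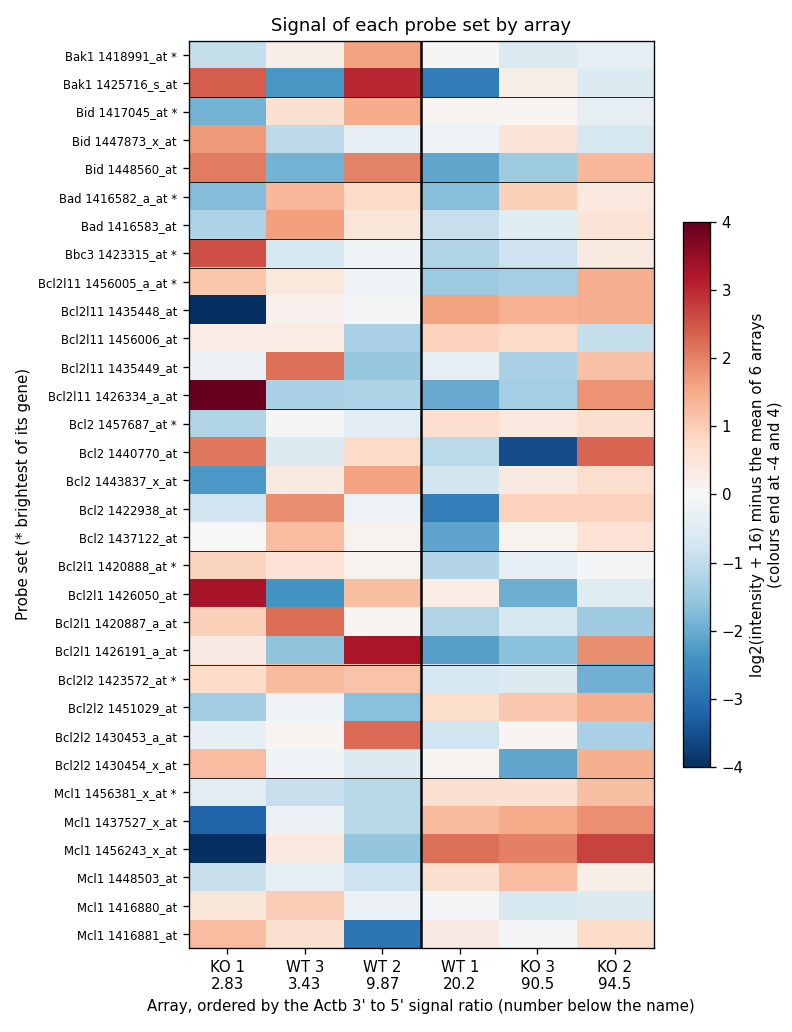
Log2(intensity + 16) of each of the 32 probe sets minus its mean over the 6 arrays (colour), with arrays on the x axis ordered by their Actb 3' to 5' ratio and probe sets on the y axis grouped by gene, the brightest marked by an asterisk. Of the Mcl1 probe sets, 4 are higher on all 3 arrays to the right of the line (ratio 20.2 to 94.5), and Bcl2l2 has 1 probe set in each direction.

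The dim probe sets of the family varied with the arrays in another way. Of 14 at or under the median brightness, 3 were highest on Trim9 KO replicate 1, WT replicate 2 and KO replicate 2, the arrays with the highest median intensity, against 20.3% of all probe sets that dim. An example is Bid 1448560_at, at 811, 769 and 480 on those arrays and 30.7 to 56.9 on the others. A share so near the background says nothing particular of the family.

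Of the other proteins of the family, 11 of 15 listed genes were measured, and 6 had a higher and 5 a lower mean in Trim9 KO retinas, with a median log2 fold change of 0.17. Pmaip1 (NOXA), a BH3-only partner of MCL1, read 124, 91.6 and 67.0 in WT and 1625, 333 and 133 in KO. All 3 KO arrays lay above all 3 WT arrays, for a log2 fold change of 2.03 (standard error 1.08, limma adjusted p = 0.999). Bok, a relative of the effectors, was at -1.97 (standard error 1.09) and Bcl2l12 at -1.80 (standard error 1.17), both with overlap.

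Downstream of the mitochondrion, 10 of 12 listed apoptosome and caspase genes were measured, with 7 higher and 3 lower. Dffa, the inhibitor of the DNase that caspases release, read 750, 988 and 2477 in WT and 71.9, 573 and 578 in Trim9 KO retinas, without overlap (log2 fold change -1.99, standard error 1.09). The initiator caspases of the death receptor and mitochondrial routes pointed apart, with Casp8 at 1.45 (standard error 1.10) and Casp9 at -1.36 (standard error 1.11). Of the inhibitor of apoptosis proteins and their antagonists, 8 of 9 were measured, 4 higher and 4 lower. Birc3 was above WT on every KO array, at 292, 595 and 237 against 18.0, 179 and 81.7 (log2 fold change 2.07, standard error 1.02). Xiap, the direct caspase inhibitor, was below WT on every KO array (-0.88, standard error 0.91), and Htra2, a mitochondrial protease that relieves such inhibition, was at -1.31 (standard error 1.16). In these 3 lists 0 genes passed limma at an adjusted p of 0.05, and 0 had an unadjusted p under 0.05. Every KO array lay above every WT array for 1 of the 11 other family genes and 1 of the 8 inhibitors and antagonists. Every KO array lay below for 1 of the 10 apoptosome and caspase genes and 1 of the 8. The shares over all genes were 5.35% above and 2.89% below, and the genes named were those with the largest limma statistics.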

How the data were processed

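RNA of 3 WT and 3 Trim9 KO adult retinas was hybridized to Affymetrix mouse genome arrays. The deposited values are linear intensities, which the authors scaled so that the mean of each array without its lowest and highest 2% of probe sets was the same. Processing notes from the submitters list MAS5, with no version, whereas RMA is given in the published methods; the values are linear, with unequal medians. No column lacked a sample, and 0 pairs of arrays were identical.

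Controls (64 probe sets) were left out, and log2(intensity + 16) of 45037 probe sets was fitted with limma 3.58.1 (lmFit, eBayes) in R 4.3.3, without filter or block, with Benjamini-Hochberg adjustment over all of them. Platform annotation named 1 gene for 34945 probe sets (99.4% matched by gene number to GRCm38.p6), several for 932 and none for 9160. A gene was read by its brightest probe set, by mean log2 signal of all arrays. Permutation tests were exact and two-sided. Figures used Python 3.11.15 and matplotlib 3.10.9.

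Named genes were the 10 members, Trim9 and up to 3 genes per pathway list with the largest limma statistic. Members, roles and lists were chosen with earlier results of these data known. Alternatives were quantile normalization, equal array medians, pseudocounts of 1 and 64, a filter on dim probe sets, averaging the probe sets of a gene, a replicate block, a robust trended prior, array weights and leaving out each array. The Actb ratio class was added after the data were seen. The fit was tested on simulated data. Precision is limited by the number of arrays, and listed genes without a probe set of their own are not analysed here.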

Additional observations from a re-analysis of the deposited data

How the results depend on the processing

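In the 16 alternative settings 0 of the measured members passed an adjusted p of 0.05 (lowest 0.615), and 0 probe sets passed over the whole table. Replicate numbers did not pair the arrays (r of deviations between same-numbered arrays -0.234, -0.0815 and 0.0331), and with a replicate block 0 members passed. The count of members without overlap was 2 of 9 (Bak1 and Bid), and 4 with equal array medians (Bbc3 and Bcl2l2 added). It was 1 of 8 with the filter on dim probe sets, which leaves out Bak1, and 0 of 9 with all probe sets of a gene averaged. Leaving out an array gave 2 to 4, with 4 without WT replicate 1 (Bcl2l2 and Mcl1 added) or Trim9 KO replicate 3 (Bbc3 and Bcl2l11 added). Genes without overlap made up 8.24% of all genes with 6 arrays and 7.27% with equal medians. With the filter they were 7.91% of 12056 genes, and with probe sets averaged 7.58%. They were 23.1% when WT replicate 1 was dropped and 21.7% when Trim9 KO replicate 3 was. When any other array was dropped they were 13.3% to 19.2%, so all counts with an array left out stand beside a higher background. After quantile normalization the 2 were Bak1 and Bbc3, against 8.88% of all genes. Pro minus anti lay between -0.53 and 0.21 with 1 array removed, was 0.14 with the filter and 0.28 with all probe sets of a gene averaged, and was 0.70 within the high-ratio and -0.64 within the low-ratio arrays. Of 143 log2 fold changes of single members, 129 kept their sign. The others were, with the mean of probe sets, Bak1 at 0.07, Bcl2 at 0.17 and Bid at 0.31, with array weights, Bad at 0.04, Bcl2 at 0.40 and Bcl2l1 at -0.08, and, with equal medians, Bcl2l1 at -0.03. Leaving out an array moved Bad from -1.16 to 0.56 (0.08 and 0.35 without WT replicates 2 and 3), Bcl2 from -0.46 to 0.47 (0.20 without WT replicate 1) and Bcl2l1 from -0.22 without WT replicate 1 to 0.66 (-0.09 without Trim9 KO replicate 1). The cause of these turns was not tested. Over the whole table the median was 0.18, 0.015 after quantile normalization and -0.14 with equal array medians.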

Other observations

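Genes that switch the family on or off were measured for 16 of 17 listed, with 9 higher and 7 lower in Trim9 KO retinas (median log2 fold change 0.24). The largest limma statistics belonged to Trp73, a relative of p53 (1.69, standard error 1.32), the 14-3-3 protein Ywhaz, which holds phosphorylated BAD in the cytosol (1.13, standard error 1.05), and the transcription factor E2f1 (1.39, standard error 1.30). Each had overlapping groups. Of the 16, 1 other gene had every KO array above every WT array, against 5.35% of all genes. Of 9 listed membrane and fission proteins that bind the family, 5 were higher and 4 lower (median 0.03). Vdac2, a channel that recruits BAK1, read 3829, 23133 and 27678 in WT and 11853, 2772 and 2189 in Trim9 KO retinas, so that WT replicate 1 and KO replicates 2 and 3 were the 3 lowest arrays, as they were for Bcl2l2. Bcap31 had the reverse order, at 31345, 5923 and 7383 in WT and 14072, 42857 and 25171 in KO. The fission adaptor Mff was at 1.15 (standard error 1.02). Mff and Ywhaz were each read by a probe set with the suffix _x_at, whose probes may also match other transcripts. Their profiles were alike. Mff read 205672, 265635 and 54486 in WT and 515908, 367394 and 172871 in KO. Ywhaz read 180875, 215870 and 41449 in WT and 436269, 307120 and 125443 in KO. The part of shared probes in this likeness was not tested. In both lists 0 genes passed limma at an adjusted p of 0.05, and 0 had an unadjusted p under 0.05.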
